A study of Mus musculus with 6 samples.

Results

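Gas5, Zfas1, Snhg1, Snhg3, Snhg5, Snhg6, Snhg8, Snhg12 and Snhg15 are long noncoding genes of the mouse that carry small nucleolar RNAs (snoRNAs) in their introns. They were taken by gene name from the count table, and these 9 genes are 9 of the 49315 genes listed there. RNA was sequenced from bEND.3 cells, an immortalized mouse brain endothelial line, after transfection with Lipofectamine 2000 of an antisense LNA GapmeR to the long noncoding RNA Gm39822 or of a negative control LNA GapmeR. Each oligonucleotide was used at 100 nM, and all samples therefore carried a transfected GapmeR in a single cell line. The labels gave 4 GapmeR samples and 2 negative controls. A GapmeR pairs with its target RNA through a DNA core flanked by locked nucleic acids and directs RNase H to cut it.

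A snoRNA host gene is transcribed and spliced like other genes, and the snoRNAs are trimmed out of the excised introns. Box C/D snoRNAs guide the methylation of ribosomal RNA and box H/ACA snoRNAs guide its pseudouridylation. The spliced host RNA that remains often starts with a 5′ terminal oligopyrimidine tract, as the mRNAs of ribosomal proteins do, and carries only short open reading frames. Ribosomes can therefore engage it, and several hosts, of which Gas5 is the best known, are degraded by nonsense-mediated decay during translation and accumulate when translation is blocked or growth stops.

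The starts of these genes are shown first, since the pyrimidine tract at the start is the sequence feature that the hosts are known for. RefSeq promoter windows of GRCm38.p6, from 250 bases before to 50 bases after the annotated start, were matched for 8 of the 9 genes and gave 9 windows, with 2 for Gas5. The 70 bases around each start are printed 5′ to 3′ on the strand of the gene, with 45 bases before the start and 25 from it onwards. Capitals mark the longest run of C and T letters that begins with a C within 10 bases of the annotated start, where it held at least 5 letters. The order is that of the log2 fold changes given further on, and Snhg6 is named only. Coordinates are those of mm10, of which GRCm38.p6 is the patched assembly.
Snhg15, chr11:6528736-6528805, minus strand: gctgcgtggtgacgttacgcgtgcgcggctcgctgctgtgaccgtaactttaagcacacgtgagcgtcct
Snhg5, chr9:88522873-88522942, minus strand: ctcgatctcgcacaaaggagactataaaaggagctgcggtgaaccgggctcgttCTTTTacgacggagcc
Snhg1, chr19:8723442-8723511, plus strand: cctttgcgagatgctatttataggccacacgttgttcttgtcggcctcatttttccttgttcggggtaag
Snhg12, chr4:132308633-132308702, plus strand: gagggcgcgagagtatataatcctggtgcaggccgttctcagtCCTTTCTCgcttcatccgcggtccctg
Gas5, second start, chr1:161035121-161035190, plus strand: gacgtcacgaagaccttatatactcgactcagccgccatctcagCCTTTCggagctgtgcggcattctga
Gas5, first start, chr1:161034556-161034625, plus strand: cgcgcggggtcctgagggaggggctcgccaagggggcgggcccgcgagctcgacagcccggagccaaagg
Zfas1, chr2:167062889-167062958, plus strand: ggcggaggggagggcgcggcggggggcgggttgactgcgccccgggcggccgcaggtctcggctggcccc
Snhg8, chr3:123508312-123508381, minus strand: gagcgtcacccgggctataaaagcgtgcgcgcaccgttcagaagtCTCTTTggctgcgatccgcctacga
Snhg3, chr4:132353662-132353731, minus strand: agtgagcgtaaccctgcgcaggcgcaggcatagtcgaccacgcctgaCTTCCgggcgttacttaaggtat

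A run of at least 5 letters was found in 5 of the 9 windows (55.6%), against 35.8% of all 32851 mouse promoter windows and 61.6% of the 73 windows of ribosomal protein genes. Snhg12 held the run of 8 letters, CCTTTCTC, and 11.1% of all windows held a run that long. The letters TATA, a search added after the data had been seen and made between 40 and 21 bases before the start, were found in 4 of the 9 windows (44.4%), those of Snhg1, Snhg8, Snhg12 and the second start of Gas5, against 5.34% of all windows. In Snhg5 the letters TATA begin 23 bases before the start, but the last letter lies past the edge of the searched stretch, so they were not counted. In the whole windows and on both strands, CACGTG, the E-box read by MYC and related factors, was found in 1 window, that of Snhg15, against 7.15% of all windows. CGGAAG, the core of many ETS factor sites, was found in 4 of the 9 windows against 16.9% of all, and GGAAG, which every CGGAAG contains, in 4 of the 9 against 71.4%. CCAAT was found in 3 of the 9 against 37.4%. These matches describe the letters only. Runs of at least 5 letters stood within 10 bases of starts of genes that rose, such as Snhg12 and Gas5. They also stood there in genes that passed no test, Snhg8 and Snhg3. The run began at base 1 in Snhg8, and 1 and 2 bases before the start in Gas5 and Snhg12. In Snhg3 and Snhg5 it began only at bases 3 and 10, so these runs do not include the annotated start.

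The total counts lay between 30264086 and 37117934 in the GapmeR samples and were 29261988 and 34266811 in the controls. Limits of 3 counts correspond to 0.0771 to 0.110 CPM, counts scaled to a fixed library total, and cover counting error only, and every one of the 9 genes lay above them in all samples. Values of the GapmeR samples are given throughout in the order of their numbers, and means stand with their SD over 4 GapmeR samples or 2 controls. The targeted Gm39822 was counted 2, 1, 4 and 2 times after knockdown and 61 and 56 times in the controls. All 11 endothelial marker genes were expressed, with summed levels of 8843 to 10032 CPM in the GapmeR samples and 10362 to 10802 CPM in the controls. GapmeR 2 stood apart for the host genes. Each of the 9 lay above the mean of the other GapmeR samples in GapmeR 2, by 0.13 to 0.85 on the log2 scale with a median of 0.27, while the median over 12772 genes of at least 1 CPM was about 0 and the 5th and 95th percentiles were -0.34 and 0.37. The highest GapmeR value was that of GapmeR 2 for 8 of the 9 genes, as it was for 31.3% of the 12772 genes. Genes whose canonical transcript is under 1 kb also lay higher in GapmeR 2, with a median of 0.10 over 908 genes against -0.02 for transcripts of 4 kb and over, and the part of this in the host values was not tested.

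Of the 9 host genes, 7 were higher after Gm39822 knockdown, none was lower, and Snhg3 and Snhg8 did not pass the test. All 9 were among the 18234 genes that passed the filter on low counts (5 or more in 2 or more samples), which were tested with edgeR's quasi-likelihood test and called at a Benjamini-Hochberg adjusted p-value under 0.05. A large part of the transcriptome differed between the groups, and 25.4% of all genes tested were called higher and 20.0% lower. The groups differ in the oligonucleotide transfected, so loss of Gm39822 and other effects of the oligonucleotide cannot be told apart. The 4 GapmeR samples all lay above both controls for these 7 genes, as they did for 31.9% of all genes. With at least a 1.5-fold increase, 6 of the 9 host genes were called, against 17.8% of all genes. The median log2 fold change was 0.81 over the 9 genes and 0.03 over all genes tested. Their values by sample are plotted below in the order of the change.

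**Figure D1:**
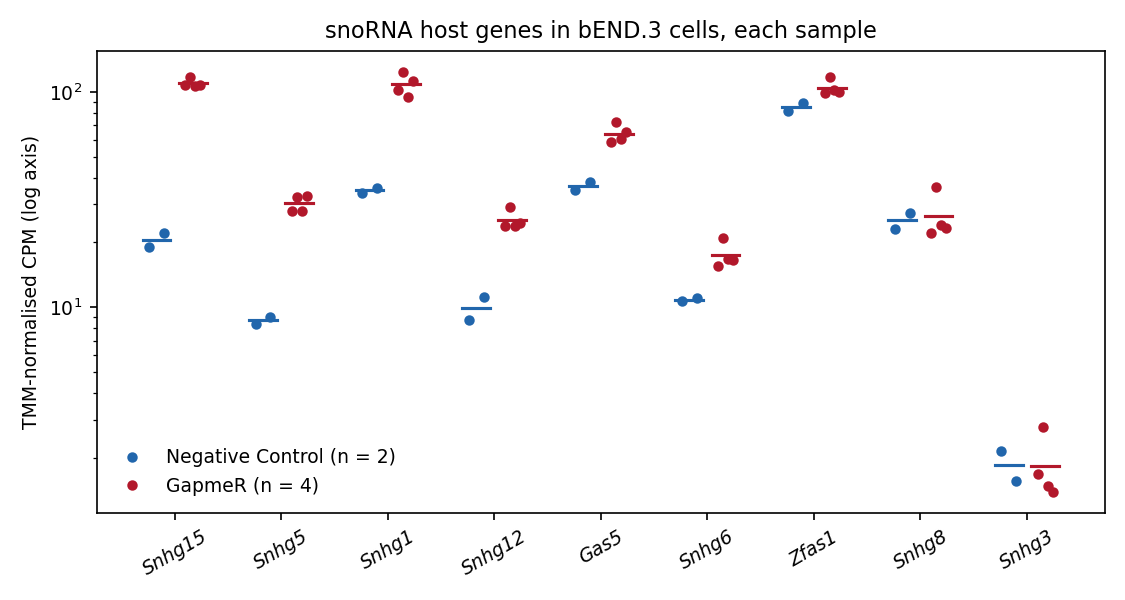
Level of each host gene in each sample, as TMM-normalised CPM on a log axis, with blue points for the 2 negative controls, red points for the 4 GapmeR samples and lines at the group means. The GapmeR points lie wholly above the controls for 7 genes, from Snhg15 to Zfas1, and overlap them for Snhg8 and Snhg3.

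The summed level of the 9 genes was 457, 553, 458 and 484 CPM after knockdown and 222 and 245 CPM in the controls, with the counts scaled by edgeR's TMM method. The GapmeR mean of 488 ± 44.9 CPM (SD, n = 4) was 2.09 times the control mean of 234 ± 16.3 CPM (SD, n = 2), and the groups did not overlap. An exact two-sided permutation test of 4 samples against 2 gave p = 0.0667, the smallest value that its 15 splits allow. In bulk RNA, fewer cells of a kind and less RNA per cell cannot be told apart. The labels do not say whether the samples came from separate cultures, so the p-values measure only the spread between these samples, which may be technical.

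Snhg15 showed the largest change of the 9. This gene carries a box H/ACA snoRNA and lies at chr11:6525591-6528760 on the minus strand. Its level was 107, 118, 107 and 108 CPM after knockdown and 19.1 and 22.1 CPM in the controls. No GapmeR value came near the control values, and the GapmeR samples lay close together, averaging 110 ± 5.20 CPM (SD, n = 4) against 20.6 ± 2.15 CPM (SD, n = 2). The fold change was 5.33 with a 95% interval of 4.68 to 6.08, or 2.42 on the log2 scale (standard error 0.09, adjusted p = 5.4e-12, edgeR). The change of Snhg15 lay at percentile 91.4 of all genes tested.

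Snhg5, Snhg1 and Snhg12 followed. Snhg5, at chr9:88521052-88522897 on the minus strand, is the host of the box C/D snoRNAs of the U50 family. It was measured at 28.1, 32.5, 27.9 and 33.0 CPM in the GapmeR samples and at 8.40 and 9.02 CPM in the controls. Its fold change was 3.49 (95% interval 2.98 to 4.08, log2 1.80, standard error 0.11, adjusted p = 1.3e-09, edgeR). Snhg5 was the only gene of the 9 whose highest value was not that of GapmeR 2 but that of GapmeR 4.

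Snhg1, at chr19:8723487-8726326 on the plus strand and historically called U22 host gene, holds 8 of the snoRNA genes listed in the count table. Its level was 102, 124, 95.04 and 112 CPM after knockdown and 34.0 and 35.8 CPM in the controls. The controls averaged 34.9 ± 1.32 CPM (SD, n = 2) and the GapmeR samples 108 ± 12.6 CPM (SD, n = 4), with no overlap. The fold change of 3.10 had a 95% interval of 2.67 to 3.61 (log2 1.63, standard error 0.10, adjusted p = 5.2e-09, edgeR).

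Snhg12, at chr4:132308678-132311024 on the plus strand, holds 4 listed snoRNA genes and has the longest pyrimidine run of the windows above. It stood at 23.9, 29.2, 23.9 and 24.5 CPM in the GapmeR samples and at 8.72 and 11.2 CPM in the controls. The controls differed from each other more than those of Snhg5 or Snhg1 did in proportion, but the groups were well separated. The fold change was 2.55 (95% interval 2.13 to 3.05, log2 1.35, standard error 0.12, adjusted p = 2.5e-07, edgeR).

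Gas5, named for its accumulation in growth-arrested cells and described as a decoy for the glucocorticoid receptor, lies at chr1:161034601-161038539 on the plus strand with 9 listed snoRNA genes. Its level was 58.3, 72.2, 60.4 and 65.3 CPM after knockdown and 34.9 and 38.3 CPM in the controls. The groups did not overlap, and the fold change was 1.75 (95% interval 1.53 to 2.00, log2 0.81, standard error 0.09, adjusted p = 2.7e-06, edgeR). Gas5 was the middle gene of the 9 by size of change.

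Snhg6, at chr1:9942025-9944118 on the minus strand, holds the listed gene Snord87. It rose from 10.7 and 11.0 CPM in the controls to 15.5, 20.9, 16.7 and 16.5 CPM. The fold change was 1.61 (95% interval 1.34 to 1.92, log2 0.68, standard error 0.12, adjusted p = 0.00025, edgeR).

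Zfas1, transcribed antisense from the 5′ end of Znfx1 and host of 3 listed snoRNA genes, lies at chr2:167062934-167065862 on the plus strand. Its level was 98.3, 117, 102 and 99.8 CPM after knockdown and 81.4 and 89.1 CPM in the controls. The GapmeR values lay above the controls by a narrow margin, and the fold change was 1.22 (95% interval 1.08 to 1.38, log2 0.29, standard error 0.08, adjusted p = 0.0097, edgeR). Without Negative Control 1 the log2 fold change of Zfas1 was 0.24 with a standard error of 0.11 and an adjusted p of 0.120 (edgeR), so the call was lost. That fit has a single control, which is assumed to vary like the GapmeR samples.

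Of the genes that passed no test, Snhg8, at chr3:123507552-123508336 on the minus strand, carries a box H/ACA snoRNA. It was measured at 22.1, 36.2, 24.2 and 23.4 CPM after knockdown and at 23.2 and 27.4 CPM in the controls. The groups overlapped, and GapmeR 2 was the only GapmeR sample above both controls. The fold change was 1.05 with a 95% interval of 0.738 to 1.49 (log2 0.07, standard error 0.21, adjusted p = 0.822, edgeR). Without GapmeR 2 its log2 fold change was -0.12 (adjusted p = 0.261, edgeR).

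Snhg3, at chr4:132351933-132353686 on the minus strand, carries the box H/ACA snoRNA of the Snora73 family and had the fewest counts of the 9, with 57, 108, 46 and 45 after knockdown and 59 and 50 without it. Its level was 1.68, 2.77, 1.48 and 1.39 CPM against 2.15 and 1.57 CPM. The groups overlapped, and GapmeR 2 again held the highest value. The fold change was 0.999 (95% interval 0.649 to 1.54, adjusted p = 0.997, edgeR), and a change of Snhg3 within that interval is not excluded.

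Snhg3 and Snhg12 are near neighbours on opposite strands of chromosome 4, and their log2 fold changes were -0.0015 and 1.35. The median log2 fold change over all genes was 0.17 when counts were scaled by library size only, and the direction of every host gene that passed the test was the same under that scaling. Snhg3, which passed no test, turned from -0.0015 to 0.15.

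The changes moved the make-up of the summed host counts, which does not depend on the scaling between libraries. The counts were not divided by gene length, so the shares are of reads and not of RNA molecules. As a share of the summed counts of the 9 genes, Snhg15 took 23.5%, 21.3%, 23.3% and 22.3% after knockdown and 8.57% and 9.003% in the controls. The share of Zfas1 went the other way, with 21.5%, 21.2%, 22.2% and 20.6% against 36.6% and 36.3%, although its own level was called higher. Snhg1 held 22.2% ± 1.02 (SD, n = 4) against 14.9% ± 0.474 (SD, n = 2), Snhg5 6.24% ± 0.401 against 3.73% ± 0.0691, and Snhg12 5.20% ± 0.0903 against 4.23% ± 0.440. The shares of Gas5, at 13.1% ± 0.310 against 15.6% ± 0.0597, and of Snhg6, at 3.56% ± 0.188 against 4.65% ± 0.231, were lower in the GapmeR samples although their own levels were higher. Snhg8 held 5.38% ± 0.813 against 10.8% ± 0.521, and Snhg3 0.370% ± 0.0936 against 0.803% ± 0.233. For each of the 9 genes the shares of the GapmeR samples did not overlap those of the controls, and the exact two-sided permutation p was 0.0667, the smallest value possible. The 9 shares sum to 100% in a sample and are not independent of each other. The summed level of the GapmeR samples was 2.09 times that of the controls, so a gene that rose by less lost share. The separations of the 9 shares are therefore not 9 separate results. The levels of Snhg8 and Snhg3 passed no test and overlapped between the groups. By level, which is a different measure from these shares, 59.2% of all genes tested did not overlap between the groups, in either direction.

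**Figure D2:**
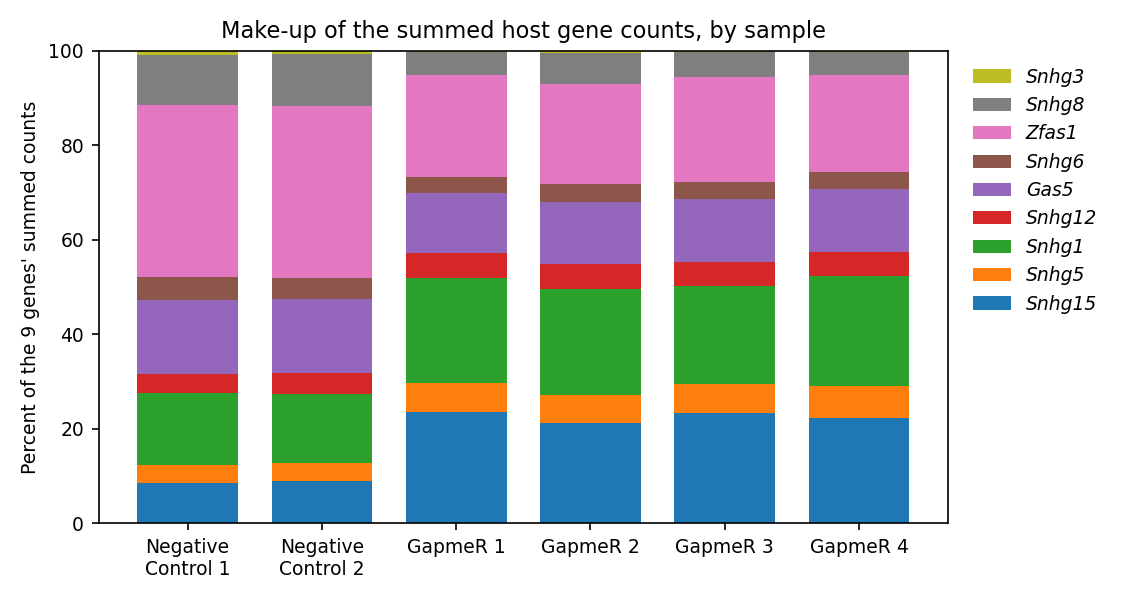
Share of each host gene in the summed counts of the 9 genes, in percent, as stacked bars for the 2 negative controls and the 4 GapmeR samples. Zfas1, with 36.6% and 36.3%, is the largest block in the controls, and Snhg15 grows from 9.003% or less to 21.3% or more in the GapmeR samples.

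Apart from the shares of counts above, levels were compared between genes per kilobase (kb), over the union of the exons in the GENCODE annotation of GRCm39. For 8 of the 9 genes, all but Snhg3, this union is longer than the whole gene span of mm10 given above, so it may not be the length over which the reads were counted. In the controls the order was Zfas1 at 22.7 CPM per kb, Snhg8 at 18.2, Snhg1 at 9.98, Gas5 at 8.65, Snhg15 at 4.08, Snhg12 at 3.48, Snhg5 at 1.96, Snhg6 at 1.89 and Snhg3 at 1.89 CPM per kb. The ranges over the 2 controls overlapped for Snhg15 and Snhg12, for Snhg5 and Snhg6, and for Snhg6 and Snhg3. In the GapmeR samples Snhg1 came first with 31.0 ± 3.62 CPM per kb (SD, n = 4), followed by Zfas1 with 27.8 ± 2.31 and Snhg15 with 21.8 ± 1.03 CPM per kb. Snhg1 and Zfas1 overlapped in range, as did Snhg15 and Snhg8, Snhg8 and Gas5, and Snhg6 and Snhg3. The order depended on the length used. Per kb of the canonical transcript, a length chosen after the data had been seen, Zfas1 stayed first in the controls with 181 CPM per kb, Gas5 came next with 54.7, ahead of Snhg1 with 30.9 and Snhg8 with 25.7, and Snhg12 came last with 3.50 CPM per kb.

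The snoRNAs inside these genes were hardly counted. The GENCODE annotation places 33 snoRNA genes within the 9 hosts, and 29 of them are listed in the count table. Of these, 27 had 0 counts in every sample, and the remaining 2 were Snora73a in Snhg3, with 2, 2, 2 and 3 counts against 1 and 1, and Snord87 in Snhg6, with 0, 2, 2 and 2 counts against 1 and 1. No sample had more than 5 counts over all 29 genes, and the values of the host genes say nothing on the mature snoRNAs.

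Several hosts overlap other genes, and since the strand setting of the counting is not given in the sources used here, reads of overlapping genes may have been shared or left out. Slc3a2, the heavy chain of several amino acid transporters, lies opposite Snhg1, and the exons of the pair overlap in the annotation. It fell, with 511, 482, 498 and 469 CPM in the GapmeR samples and 951 and 1056 CPM in the controls (log2 fold change -1.03, standard error 0.07, adjusted p = 1.5e-08, edgeR), while Snhg1 rose. Znfx1, the helicase gene opposite Zfas1, was lower too, averaging 591 ± 75.3 CPM against 766 ± 38.5 CPM (log2 fold change -0.37, adjusted p = 0.0078, edgeR). Zbtb37, a zinc finger gene on the opposite strand, starts near Gas5, and the exons of this pair overlap in the annotation too. It was called higher, averaging 5.33 ± 0.308 CPM against 3.36 ± 1.14 CPM (log2 fold change 0.65, adjusted p = 0.0082, edgeR). Whether reads of Gas5 were counted in it was not tested.

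Rcc1, the exchange factor of the GTPase Ran, lies on the strand of Snhg3 and overlaps it, and averaged 36.4 ± 2.49 CPM against 30.4 ± 0.536 CPM (log2 fold change 0.26, adjusted p = 0.0179, edgeR). Reads of Snhg3 and Rcc1 cannot be told apart by strand. Gm17300, a noncoding gene opposite Snhg3, did not pass the test (log2 fold change 0.61, adjusted p = 0.175, edgeR), nor did Sgk3 opposite Snhg6, whose exons do not overlap those of the host (-0.22, adjusted p = 0.239, edgeR). For Snhg5, Snhg8, Snhg12 and Snhg15, no tested gene overlapped the host or started within 5 kb of its start.

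Other noncoding snoRNA hosts, a list of 16 genes of which 14 were in the table and 11 were tested, gave 7 genes called higher and none lower around a median log2 fold change of 0.85, against 25.4% and 20.0% of all genes. Snhg16, which the table gives under an older symbol and which was matched by its Ensembl identifier, was at 67.6, 77.0, 70.3 and 73.1 CPM in the GapmeR samples and 11.6 and 12.8 CPM in the controls. It rose by 2.56 on the log2 scale (standard error 0.09, adjusted p = 3.4e-12, edgeR), close to that of Snhg15. Snhg17 was at 95.4, 101, 93.2 and 97.1 CPM against 23.7 and 27.5 CPM (log2 fold change 1.91, standard error 0.08, adjusted p = 3.9e-11, edgeR). Both were separated from the controls by a wide gap, as Snhg15, Snhg5 and Snhg1 were. Snhg14, a host in an imprinted region, was called at 1.61 ± 0.349 CPM against 0.618 ± 0.210 CPM, and Snhg9, Epb41l4aos, 2410006H16Rik and 1110038B12Rik were also called higher. Snhg4, Snhg7, Snhg20 and Dancr did not pass the test, with log2 fold changes of 0.26, 0.00, 0.37 and -0.11.

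**Figure D3:**
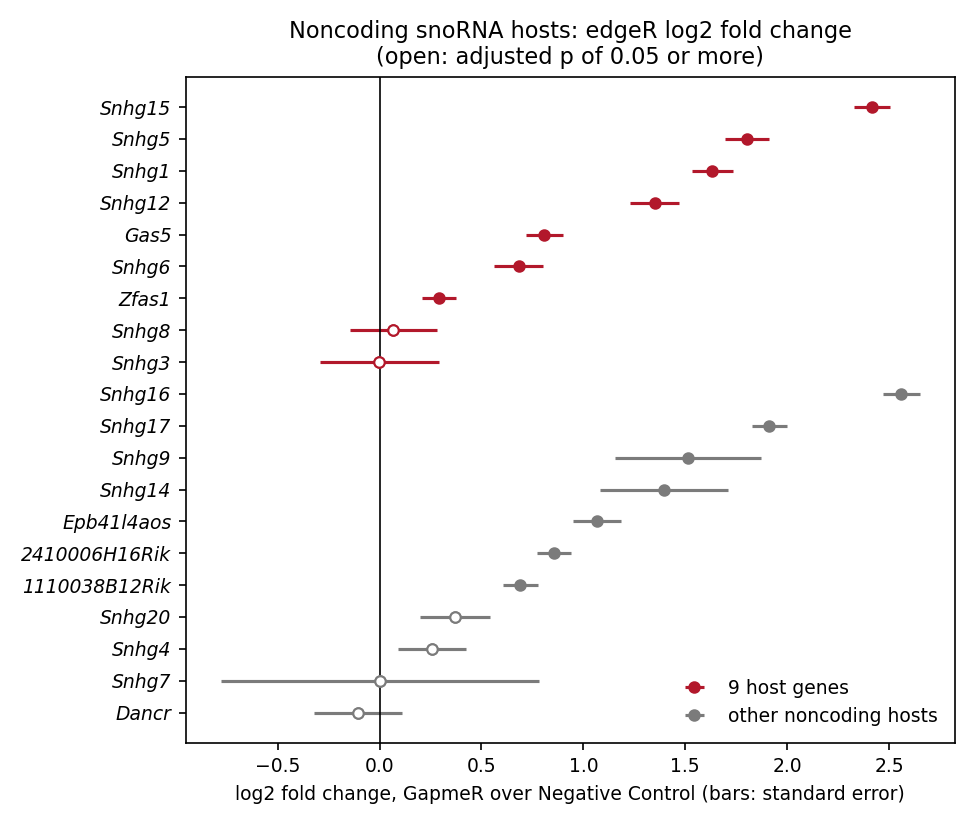
Log2 fold change of GapmeR over negative control from edgeR for the 9 host genes in red and 11 other noncoding snoRNA hosts in grey, with bars of 1 standard error and open points where the adjusted p-value was 0.05 or more. Snhg16 at 2.56 and Snhg15 at 2.42 lie farthest to the right, and no host that passed the test lies below 0.

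Genes that carry snoRNAs but encode proteins formed a separate list. Of the 26 protein-coding hosts tested, 1 was called higher and 7 were called lower, against 25.4% and 20.0% of all genes, and the median log2 fold change was -0.18. Rpl3, a protein of the large ribosomal subunit, rose and averaged 525 ± 27.0 CPM against 379 ± 22.1 CPM (log2 fold change 0.47, adjusted p = 0.00015, edgeR). Tpt1, which encodes the translationally controlled tumour protein, fell and averaged 1004 ± 40.2 CPM against 1457 ± 24.4 CPM (log2 fold change -0.54, adjusted p = 2.4e-05, edgeR). Rpl23, another large subunit protein, was called lower at -0.42. The count of lower genes depended on the samples and the scaling, with 15 without GapmeR 2, 3 without Negative Control 1, 2 without Negative Control 2 and 2 with library size only. No protein-coding host reached a 1.5-fold change. The range of their log2 fold changes, from -0.54 to 0.47, did not reach the values of Gas5, Snhg6 or the 4 hosts above them but overlapped those of Zfas1, Snhg8 and Snhg3, and the difference between the lists was not tested.

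The proteins that package snoRNAs did not move in a single direction. Of 8 proteins of the mature particles, 1 was called higher and 2 lower (median log2 fold change -0.01). The shares of all genes called higher and lower, here and for the assembly factors below, were 25.4% and 20.0%. Nop58, a core protein of box C/D particles, was at 0.21 (adjusted p = 0.0226, edgeR), Fbl, the methyltransferase of these particles, at -0.28 (adjusted p = 0.0265, edgeR) and Nhp2, a core protein of box H/ACA particles, at -0.39 (adjusted p = 0.0012, edgeR). The Nop58 call was lost without either control, the 2 lower calls became 1 when any sample but GapmeR 2 was left out, and 2 were called higher without GapmeR 3. Of 10 assembly factors, 2 were called higher and 1 lower (median 0.00), led by Rpap3, a cofactor of the R2TP chaperone complex, at 0.59 (adjusted p = 3.2e-05, edgeR). Znhit6 and Znhit3, zinc finger factors of box C/D particle assembly, were called at -0.47 and 0.39. The 2 higher calls became 1 without GapmeR 2, GapmeR 4 or Negative Control 2, and the lower call, that of Znhit6, was lost without GapmeR 1, GapmeR 3 or Negative Control 2.

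Since spliced host RNAs are known substrates of nonsense-mediated decay, its factors and other targets were listed beside them. Of 15 decay factors, 4 were called higher, close to the 25.4% of all genes, and the median log2 fold change was 0.06. None was called lower, but 2 were without GapmeR 2 and with no filter on low counts. Among the 4 were Smg1, the kinase of UPF1, the endonuclease Smg6, and Upf2, which bridges UPF1 to the exon junction complex. Smg1 averaged 244 ± 12.5 CPM against 136 ± 2.41 CPM (log2 fold change 0.84, adjusted p = 2.0e-07, edgeR). Of 6 mRNAs known as targets of this decay, 1 was called higher and 3 were called lower, against 25.4% and 20.0% of all genes. Their median was -0.15. Gadd45a, a stress-induced growth arrest gene, rose by 0.66 on the log2 scale (adjusted p = 0.00010, edgeR), while its relative Gadd45b fell by 1.77 (adjusted p = 1.6e-10, edgeR) and Ddit3, a transcription factor of the stress response, fell by 0.53 (adjusted p = 0.00076, edgeR).

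mRNAs with a 5′ terminal oligopyrimidine tract other than those of ribosomal proteins formed a further list. Of 14 tested, 1 was called higher and 6 were called lower, against 25.4% and 20.0% of all genes, the median was -0.20, and the 6 became 3 without Negative Control 1 and 2 without Negative Control 2. Eif3h, a subunit of the initiation factor eIF3, averaged 282 ± 24.6 CPM against 154 ± 29.8 CPM (log2 fold change 0.88, adjusted p = 2.5e-05, edgeR). Hnrnpa1, a nuclear RNA-binding protein, fell by 0.69 on the log2 scale (adjusted p = 5.0e-05, edgeR). Of 12 genes of the mTORC1 pathway and regulators of these mRNAs, 4 were called higher and 2 lower (median 0.02). The same 25.4% and 20.0% of all genes stand beside them. Fewer were called lower with either control left out, and 0 with library size only. The largest changes were small, at 0.34 for Tsc1, an inhibitor of mTORC1, 0.33 for the kinase Mtor and -0.32 for Eif4ebp2, a repressor of translation initiation.

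Gas5 is known to bind the glucocorticoid receptor, and the receptor gene with its targets formed a list of 9 genes. Of these, 8 were called lower and none higher around a median of -0.59, against 20.0% of all genes called lower. The 8 became 7 with library size only and 5 with at least a 1.5-fold change, and fewer were called without Negative Control 2. Fkbp5, a chaperone partner of the receptor, averaged 24.8 ± 1.501 CPM against 43.6 ± 3.84 CPM (log2 fold change -0.81, adjusted p = 8.7e-07, edgeR). The transcription factor Klf9 fell by 0.75 (adjusted p = 1.5e-06, edgeR) and the clock gene Per1 by 0.62 (adjusted p = 2.3e-05, edgeR). The receptor gene Nr3c1 itself was among those called lower. Whether Gas5 had a part in these values was not tested. The MYC network was listed because the E-box lies in the Snhg15 window. Of its 10 genes, 2 were called higher and 5 lower (median -0.24), against 25.4% and 20.0% of all genes. Fewer were called lower without Negative Control 2. Mycl, a MYC family member, fell by 2.19 (adjusted p = 3.1e-05, edgeR), Mnt, a repressor of the network, fell by 0.78 (adjusted p = 1.9e-05, edgeR) and Mxd3, another partner of MAX, rose by 1.02 (adjusted p = 6.4e-05, edgeR).

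Marker genes of endothelial and other cells moved as well. Of the 11 endothelial markers, 2 were called higher and 6 were called lower around a median of -0.30, against 25.4% and 20.0% of all genes. The same shares of all genes stand beside the macrophage and smooth muscle markers below. Emcn, an endothelial sialoglycoprotein, was at -1.33 and the junction protein Esam at -0.63, while the transcription factor Erg was at 1.12. Leaving out a single sample lowered the 2 higher calls to 1 in 5 of 6 cases, all but that of GapmeR 2. Of 10 macrophage markers, 2 were called higher, Fcer1g (log2 fold change 1.92) and Cd68 (0.43), the median was 1.05 with 9 of the 10 above 0, and the summed level of the 10 was 208 to 382 CPM in the GapmeR samples and 172 to 177 CPM in the controls. Of 8 markers of smooth muscle cells and pericytes, 6 were tested and 2 were called higher, Myh11 (4.19) and Tagln (1.96), around a median of 1.11 with all 6 above 0 and a summed level of 8.50 to 12.9 CPM against 1.94 to 2.04 CPM. None of these markers was at 0 in every sample, although Cnn1 and Des were too low to be tested. The part of these markers in the host gene values was not tested.

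**Figure D4:**
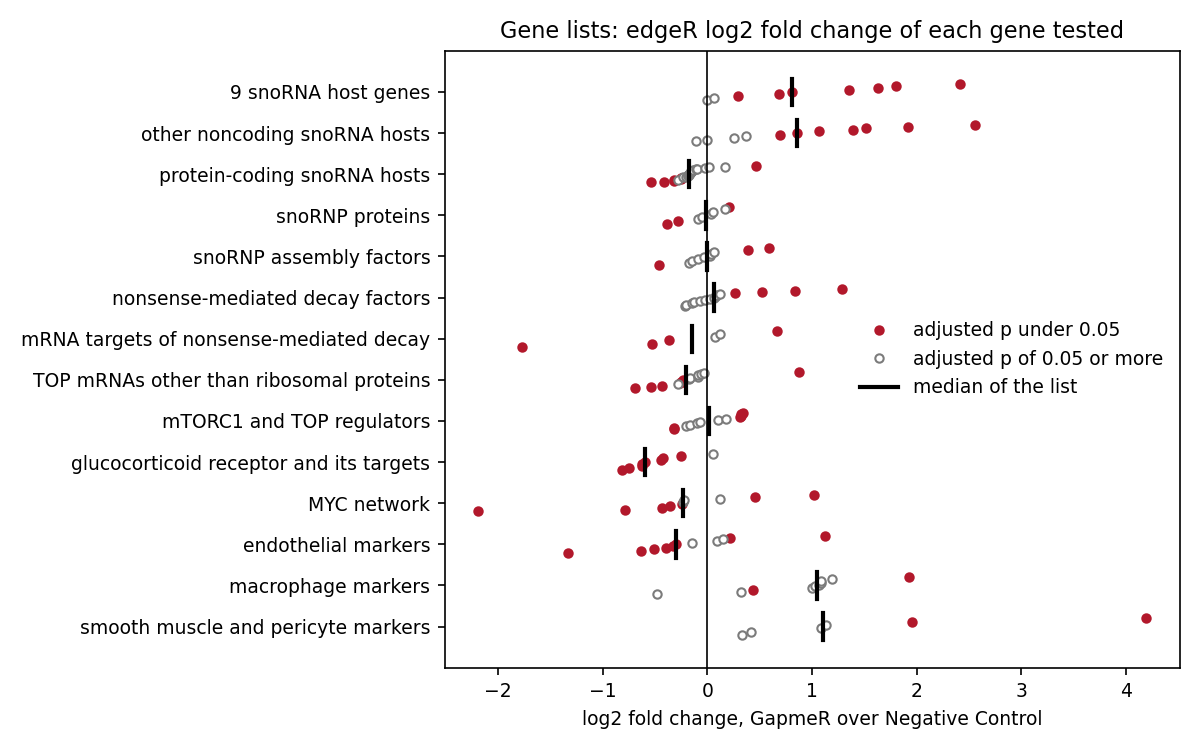
Log2 fold change of GapmeR over negative control from edgeR for every tested gene of the 9 host genes and 13 other lists, with red points for an adjusted p-value under 0.05, open points for the rest and a black line at the median of each list. The medians of the noncoding hosts lie at 0.81 and 0.85 that of the protein-coding hosts at -0.18, and those of the macrophage and smooth muscle markers at 1.05 and 1.11.

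The genes whose pattern over the 6 samples was most like the mean of the 9 hosts were sought among 8862 genes of at least 10 CPM, by the root-mean-square distance between centred log2 values. The nearest was Hnrnpa2b1, at a distance of 0.0328 on the log2 scale, with means of 516 and 253.5 CPM and a change of 1.03 on the log2 scale. Hnrnph1 followed at 0.0608 and Hnrnph3 at 0.0683, with log2 fold changes of 0.99 and 1.03. All 3 encode nuclear RNA-binding proteins that take part in splicing. Msantd2 at 0.0729 and the noncoding Gm6634 at 0.0743 came next. The mean averages hosts whose own log2 fold changes ran from -0.0015 to 2.42, and none was at the 1.03 of Hnrnpa2b1. The mean of the hosts lay at 0.22, 0.59, 0.23 and 0.28 after knockdown and at -0.71 and -0.61 in the controls on the centred log2 scale, so the pattern compared is mainly the difference between the groups with the raised value of GapmeR 2.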

How the data were processed

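RNA of bEND.3 cells was sequenced after ribosomal RNA depletion as paired reads, and the authors processed the reads with bcbio-nextgen, trimmed them and aligned them with STAR to mm10 using Ensembl transcripts. The submitters' processing notes name Trimmomatic 0.36, STAR 2.5.2b and Subread 1.5.2. The deposited values are whole-number counts of reads per Ensembl gene, not normalized, for 49315 genes. The strand setting of the counting and the release of Ensembl are not given in the sources used here. The labels assigned 4 GapmeR and 2 negative control samples. The table holds 1 further per-sample count column, which matches no sample and was used nowhere.

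Genes were kept when 2 or more samples held 5 or more counts, and the 18234 that remained were normalized by TMM and tested in edgeR 4.0.16 (R 4.3.3) with the robust quasi-likelihood test and Benjamini-Hochberg adjustment. TMM factors lay between 1.02 and 1.05 for GapmeR samples and between 0.931 and 0.936 for controls. The 95% intervals use the t distribution with edgeR's total degrees of freedom. Replicate libraries were compared by a chi-square of their counts, which per degree of freedom lay between 5.41 and 25.2, above sampling noise for each pair. Replicate numbers 1 and 2 are shared by the groups, and same-numbered samples' deviations from their group means correlated at -0.110 and 0.172. With 2 controls these deviations mirror each other, so the correlations cannot show whether the numbers pair the samples. The samples were not treated as pairs.

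The 9 genes and the gene lists were chosen with earlier results of these data known. Named genes are the 9, the genes at their loci, the 3 most changed of each list among those called with a mean of at least 1 CPM, and the 5 genes nearest in pattern. Some genes under these rules are not reported here. Other list members named were chosen after their values were seen. Coordinates at mm10 and promoters are from RefSeq GRCm38.p6. Overlaps and lengths are from GENCODE on GRCm39, joined by Ensembl identifier. Alternatives were DESeq2 1.42.0's size factors and Wald test, limma 3.58.1 with voom, scaling by library size only, other filters, a fold threshold, the replicate block and each sample left out in turn. The functions were tested on simulated data.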

Additional observations from a re-analysis of the deposited data

Results flagged for a closer look

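In 3 of 19 values examined in the GapmeR samples, the distance of 1 sample to the nearest of the others, divided by the range of the 4 samples, was above Dixon's 95% critical value, and in each the sample was GapmeR 2. These were Snhg8 with 36.2 CPM in GapmeR 2 and a ratio of 0.849, Snhg12 with 29.2 CPM and a ratio of 0.874, and Snhg15 with 118 CPM and a ratio of 0.919. Chance alone flags about 1 in 20 such groups, and the values come from the same 4 samples. For Snhg12 and Snhg15 the remaining 3 GapmeR samples were also all above the controls, while for Snhg8 they lay within or below the range of the controls.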

How the results depend on the processing

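All 7 host genes called higher stayed past the threshold under limma-voom, DESeq2's Wald test, DESeq2's size factors, library size only, no filter, a minimum of 10 counts in every sample, each GapmeR sample left out and Negative Control 2 left out, and 6 of them without Negative Control 1, where Zfas1 was at 0.24 (adjusted p = 0.120, edgeR). None was called lower in any of the 13 alternatives. With a 1.5-fold minimum 6 were called. The median log2 fold change of the 9 genes was 0.96 with library size only, against 0.81, and 0.75 to 0.90 with a sample left out. A fit with 1 control left assumes that it varies like the GapmeR samples. Library size only called 6106 genes higher and 2135 lower over all genes, against 4625 and 3643 with TMM. A fit with the replicate number as a block called 7 of the 9 higher with a median of 0.83. That fit rests on numbers that are shared but are not known to pair the samples, and on 4 samples with 1 residual degree of freedom.

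Snhg3 and Snhg8, which passed no test, changed sign. Snhg3 was at 0.0015 with DESeq2's size factors, 0.15 with library size only, 0.046 with at least 10 counts in every sample, 0.27 under the replicate block and -0.28 to 0.25 with a sample left out. Snhg8 was at -0.12 to 0.22 with a sample left out. The cause was not tested. The ranges over the 13 alternatives were 2.33 to 2.56 for Snhg15, 1.76 to 1.95 for Snhg5, 1.56 to 1.78 for Snhg1, 1.20 to 1.56 for Snhg12, 0.75 to 0.96 for Gas5, 0.58 to 0.83 for Snhg6 and 0.23 to 0.44 for Zfas1. Counts of the small lists moved by more than 1.5 times in several alternatives, such as library size only, with 7 decay factors higher against 4, and the 1.5-fold minimum, with no protein-coding host lower against 7. DESeq2's Wald test called 14 protein-coding hosts lower against 7. With 2 controls, an exact test cannot go below 0.0667.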
